A study of Homo sapiens with 16 samples.

Results

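Squamous differentiation genes were followed in MCF10HER2 cells after inhibition of the HER2 kinase. The group holds 10 genes, out of 18190 gene symbols on the array, and was chosen by symbol. Of these, 7 belong to the cornified envelope or its assembly (SPRR1A, SPRR1B, SPRR3, IVL, TGM1, CSTA and CNFN) and 3 encode secreted defence proteins of surface epithelia (PI3, SLPI and LCN2). Each gene was represented by 1 probe, so no choice between probes was needed. A probe counts as detected on an array when its detection p-value, which sets it against the negative control probes of that array, is under 0.05.

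MCF10HER2 is a human breast epithelial line derived from nontransformed MCF10A cells, with the HER2 oncogene stably over expressed. All cultures were grown with epidermal growth factor and hydrocortisone in medium without insulin or serum. The untreated 0 h culture is the only control, and parallel cultures were given 1 µM CP724,714, which inhibits the kinase activity of HER2, and harvested every 3 h from 3 to 45 h. There are 16 arrays, 1 untreated and 15 treated, with 1 culture per time point and no replicates, and the precision is limited by the number of arrays. Fresh medium was given together with the inhibitor, and without a later vehicle-treated culture the effects of inhibitor, fresh medium and time in culture cannot be told apart. MCF10HER2 is a single line in culture, which limits it as a model of breast epithelium. The question was whether cornified envelope genes and secretory defence genes rise or fall together over the course.

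The cornified envelope is the layer of cross-linked protein that replaces the plasma membrane of a terminally differentiating keratinocyte. Transglutaminases join involucrin, the small proline-rich (SPRR) proteins and other precursors into this layer, while protease inhibitors and antimicrobial proteins are released at the same surface. Breast epithelium does not normally build an envelope, but cultured mammary epithelial cells and breast tumors with squamous features can express parts of the program.

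Signals are given as log2 intensity after background correction and quantile normalization. Each array has 1 scale, but probes differ in how strongly they bind, so the level of one gene is not set against that of another. The background model inferred for this correction was wider than the spread of dim probes: its SD was 212 to 491 intensity units over the 16 arrays, against 18.0 to 30.5 when read from the signals at a detection p of 0.5 and at 1 SD above it. Differences of dim probes are therefore compressed, which affects SPRR1B, IVL and LCN2 most. Linear changes under another background correction are given where they differ by more than 1.5-fold, and calls where they change. Steps and slopes within a period are mostly given under the main correction only. The number of detected probes was 10363 to 11436 per array. The 9 h and 18 h arrays were dim, with upper quartile intensities of 397 and 418 against 553 to 804 on the others. Background intensity lay between 135.9 and 148.9 on the arrays of 0 to 21 h and between 164.5 and 173.9 on those of 24 to 45 h. The arrays of 0 to 21 h are called early and those of 24 to 45 h late, 8 each, and a difference in background between them cannot be told apart from a difference in time.

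Markers were read as a check of the cells. The basal marker KRT5 lay between 14.51 and 15.19 and the luminal keratin KRT18 between 13.93 and 14.66, both detected on all arrays, while KRT14, ESR1 and PGR were not tested because fewer than 3 arrays detected them. In the linear fit over 45 h KRT5 fell (-0.47, limma adjusted p = 0.00696), while the basal integrin ITGB4 (1.51, 0.00134) and the luminal keratin KRT8 (0.66, 0.007) rose and KRT18 changed by 0.31 (0.0863). Of the 8 fibroblast markers 1 (DCN) was tested and 6 were detected on no array. DCN rose by the line (0.26, limma adjusted p = 0.0013), at a summed intensity of the tested markers of 280 to 353. Of the 8 leukocyte markers 4 were tested, with PTPRC detected on 7 arrays and CD3E on fewer than 3. The summed intensity of the 4 tested leukocyte markers ranged from 1225 to 3004, and its brightest member CD68, a lysosomal protein that other cells also make, ranged from 8.88 to 11.08 in log2 intensity. CD68 rose from 0 to 21 h (2.49 in log2 over 21 h, limma adjusted p = 5.14e-05), while its linear change over 45 h was 0.60 (0.403). CD14, a monocyte marker detected on all 16 arrays, rose by the line (0.31, limma adjusted p = 0.00935) and from 0 to 21 h (0.50, 5.92e-05). The part of other cells in the results was not tested. In bulk RNA, fewer cells expressing a gene and less RNA per cell cannot be told apart.

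The promoters of 6 members were matched in RefSeq (GRCh38.p14), those of SPRR1A, SPRR1B, SPRR3, IVL, CNFN and LCN2. The 250 bases before the transcription start are shown for 4 of these because they stand for the different courses described below: SPRR1A and SPRR1B for the early step down, LCN2 for the secretory group and CNFN for the rise. Capitals mark matches to the AP-1 motif TGANTCA, read on both strands, where N is any base. SPRR1A is at chr1:152983831-152984080 on the plus strand, SPRR1B at chr1:153030953-153031202 on the plus strand, LCN2 at chr9:128149203-128149452 on the plus strand, and CNFN at chr19:42390298-42390547 on the minus strand, each printed 5′ to 3′ on the strand of the gene.
SPRR1A: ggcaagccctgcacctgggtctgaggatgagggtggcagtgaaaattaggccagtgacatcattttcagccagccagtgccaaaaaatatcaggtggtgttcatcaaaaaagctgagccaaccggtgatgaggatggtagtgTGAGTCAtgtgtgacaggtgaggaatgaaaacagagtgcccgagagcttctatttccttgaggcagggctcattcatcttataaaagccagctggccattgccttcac
SPRR1B: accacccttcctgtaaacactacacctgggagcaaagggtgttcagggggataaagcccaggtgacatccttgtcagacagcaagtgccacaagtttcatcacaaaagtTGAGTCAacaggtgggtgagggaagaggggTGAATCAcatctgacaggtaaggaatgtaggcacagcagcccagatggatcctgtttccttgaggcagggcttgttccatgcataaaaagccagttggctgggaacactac
LCN2: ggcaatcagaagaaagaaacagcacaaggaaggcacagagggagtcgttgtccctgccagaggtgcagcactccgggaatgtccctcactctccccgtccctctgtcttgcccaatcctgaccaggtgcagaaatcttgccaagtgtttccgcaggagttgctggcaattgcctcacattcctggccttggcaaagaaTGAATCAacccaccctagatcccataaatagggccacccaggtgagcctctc
CNFN: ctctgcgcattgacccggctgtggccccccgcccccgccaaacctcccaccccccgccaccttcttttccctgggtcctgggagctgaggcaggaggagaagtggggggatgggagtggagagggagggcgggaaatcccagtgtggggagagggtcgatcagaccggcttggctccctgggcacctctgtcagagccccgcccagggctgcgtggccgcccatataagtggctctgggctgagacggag

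The AP-1 motif was present in 5 of the 6 matched promoters, those of SPRR1A, SPRR1B, SPRR3, IVL and LCN2, and in 6.57% of the 35116 human promoters of the same length. The SPRR1B promoter held 2 matches, which start 141 and 111 bases before the transcription start. The match of SPRR1A starts 108 bases and that of LCN2 52 bases before it, and the CNFN window held none. The C/EBP motif was read only as TTGCNNCAA (in 1.62% of all promoters), which was found in none of the 6. This form has 2 free bases between TTGC and CAA, and forms with another spacing were not searched for. The presence of C/EBP sites in these promoters was therefore not tested. The NF-kB motif was read in a single 10-base form with 2 free bases (in 1.73%), which was also found in none of the 6. Other forms of the NF-kB motif were not searched for, so the presence of NF-kB sites in these promoters was not tested. A match is a description of the letters and no evidence of binding, and 4 of these genes lie near each other on chromosome 1 and belong to related families.

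The members did not move as one group. After quantile normalization SPRR1A and CSTA were high from 0 to 9 h and lower from 12 h on. SPRR1B went from 8.49 untreated up to 9.35 at 9 h and was at 8.30 at 12 h. TGM1 and CNFN ended the course higher than most of it, and PI3 and LCN2 were lower on the late arrays. SLPI passed neither test over the whole course, IVL was at the limit of detection, and SPRR3 was detected on no array. Of the 9 tested members, 7 were time-dependent in a spline fit of time (limma, adjusted p under 0.05), beside 41.9% of all tested probes. In the linear fit 2 members rose, beside 12.9% of all tested probes, and 5 fell, beside 11.5%. The 2 rises were called under each of 3 median scalings. With the median over the tested probes 3 members fell, beside 24% of the tested probes, with the median over all probes 3, beside 4.75%, and with the median over probes detected on all arrays 6, beside 38.6%.

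**Figure D1:**
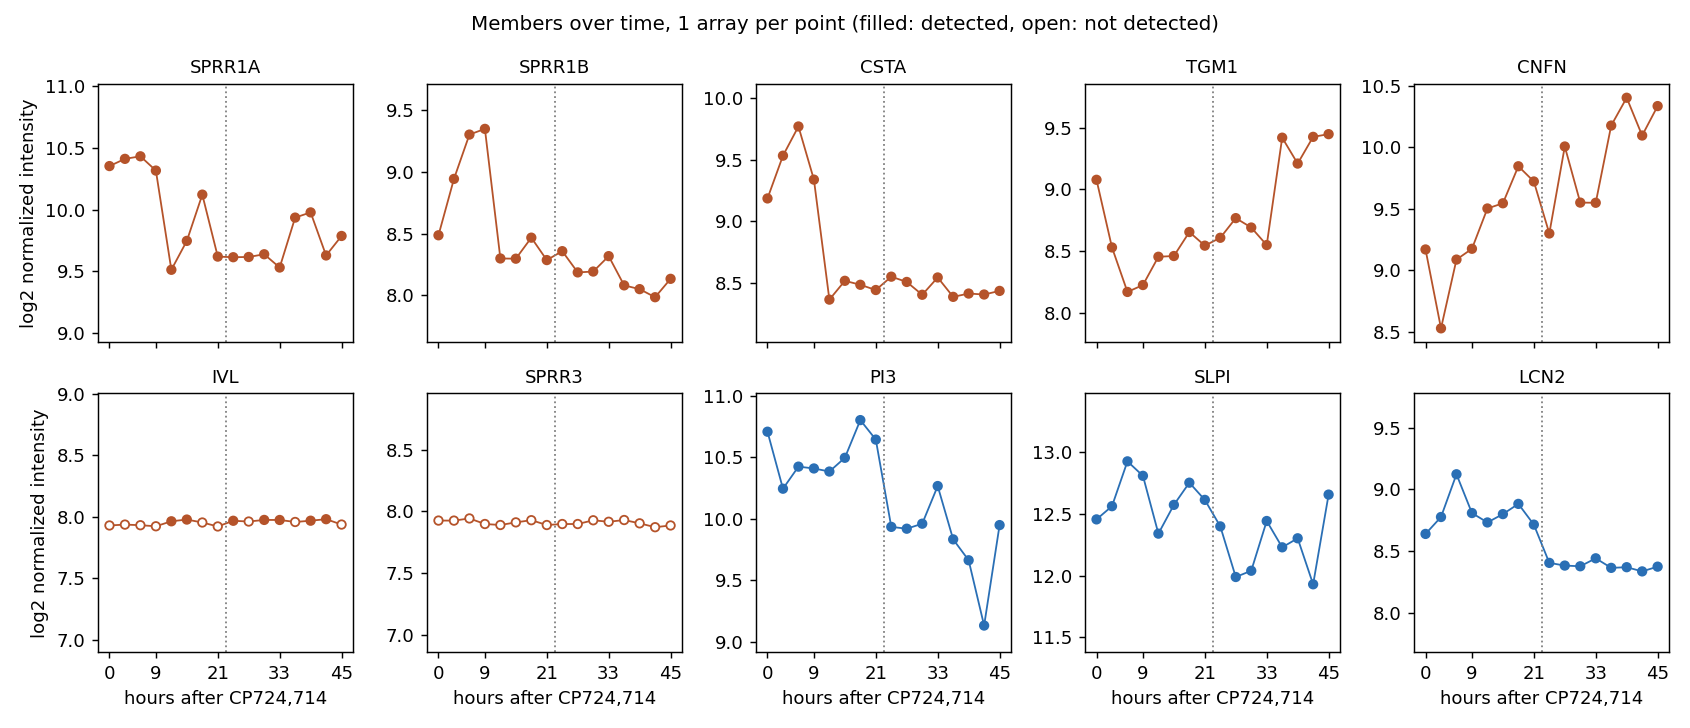
Log2 normalized intensity (y axis) of each gene at each time after CP724,714 in hours (x axis), 1 array per point, cornified envelope genes in orange and secretory defence genes in blue. Filled points are detected and open points are not; the dotted line marks the change from early to late arrays between 21 and 24 h, and each panel has its own range. SPRR1A, SPRR1B and CSTA step down between 9 and 12 h after quantile normalization, SPRR1A by -0.81 and, with the median over all probes in its place, by -0.09, while TGM1 and CNFN step up between 33 and 36 h.

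SPRR1A and SPRR1B encode precursors that are cross-linked into the envelope. SPRR1A was at 10.35 in the untreated cells and at 10.41, 10.43 and 10.32 from 3 to 9 h. It was at 9.51, 9.75, 10.12 and 9.62 from 12 to 21 h, at 9.61, 9.62, 9.64 and 9.53 from 24 to 33 h, and at 9.94, 9.98, 9.63 and 9.79 from 36 to 45 h. After quantile normalization the first 4 arrays thus lay above all 12 later ones, and the 18 h array, one of the dim ones, stood above its neighbors. The linear change over 45 h was -0.64 (SE 0.21, limma adjusted p = 0.0353), and the call was not stable: the adjusted p was 0.0957 without the 0 h array, 0.0918 without 3 h, 0.0798 without 6 h, 0.0595 without 9 h, 0.0507 without 30 h, 0.0579 without 33 h and 0.0621 without 42 h. With median scaling over the tested probes in place of quantile normalization the change was -0.34 (adjusted p = 0.138), and with the median over all probes it was -0.19 (0.552). The spline fit passed with an adjusted p of 0.0166, but not without the 3 h array (0.0551), with median scaling over the tested probes (0.129) or over all probes (0.552), or with early and late arrays as a block (0.12).

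SPRR1B took the same early step after an initial increase. It was at 8.49 untreated and at 8.94, 9.30 and 9.35 from 3 to 9 h, with the 9 h value its highest. The arrays of 12 to 21 h gave 8.30, 8.30, 8.47 and 8.28, those of 24 to 33 h 8.36, 8.18, 8.19 and 8.32, and those of 36 to 45 h 8.08, 8.05, 7.98 and 8.13. The lowest 4 values of the course are those of 36 to 45 h. SPRR1B fell over the course (-0.97, SE 0.21, limma adjusted p = 0.00229), and without background correction its change was -1.56 (SE 0.26, adjusted p = 0.000236). With normexp from the signals alone it was -1.91 (SE 0.30, adjusted p = 0.000175). Because SPRR1A and SPRR1B are close relatives and the probe sequences were not used here, cross-hybridization between their probes was not tested.

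CSTA encodes cystatin A, an inhibitor of cysteine proteases that is also built into the envelope. It was at 9.18 untreated and at 9.53, 9.77 and 9.34 from 3 to 9 h. Its values were 8.36, 8.52, 8.48 and 8.44 from 12 to 21 h, 8.55, 8.51, 8.40 and 8.54 from 24 to 33 h, and 8.39, 8.41, 8.41 and 8.43 from 36 to 45 h. After the step at 12 h all 12 arrays stayed within 8.36 to 8.55, below every one of the first 4. The share of all tested probes with the first 4 arrays above all later ones, as for SPRR1A and CSTA, is not given. By the line, CSTA fell with a change of -1.07 (SE 0.24, adjusted p = 0.0032 by limma). The mean of the 12 to 21 h arrays was 2.01-fold lower than that of the 0 to 9 h arrays, with SDs of 0.07 and 0.25 in log2 over 4 arrays each, which are successive time points and not replicates.

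Between 9 and 12 h the step was -0.81 for SPRR1A, -1.05 for SPRR1B and -0.97 for CSTA. A step at least as far down was seen for 1.31%, 0.487% and 0.641% of all tested probes, in that order. The size of the step depended on the scaling. With the median over the tested probes it was -0.29 for SPRR1A, -0.78 for SPRR1B and -0.70 for CSTA, and with the median over all probes it was -0.09, -0.58 and -0.50. This was also the interval in which the arrays as a whole differed most, with a root mean square (RMS) step of 0.33 in log2 over the tested probes, and the 9 h array was dim. Without the 9 h and 18 h arrays SPRR1B and CSTA still fell in the linear fit, while SPRR1A changed by -0.57 (adjusted p = 0.0733).

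TGM1 encodes transglutaminase 1, the membrane-bound enzyme that cross-links envelope precursors. It was at 9.08 untreated and at 8.53, 8.17 and 8.22 from 3 to 9 h. From 12 to 21 h it was at 8.45, 8.46, 8.65 and 8.54, from 24 to 33 h at 8.61, 8.77, 8.69 and 8.55, and from 36 to 45 h at 9.42, 9.21, 9.43 and 9.45. All 4 of the last arrays were above the untreated one, and the other 11 treated arrays were below it. TGM1 rose over the course (0.92, SE 0.23, adjusted p = 0.00735 by limma), although the course was a dip followed by a step, and at 45 h it was 1.29-fold above the untreated value.

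CNFN encodes cornifelin, a component of the envelope. It was at 9.17 untreated and at 8.53, 9.09 and 9.18 from 3 to 9 h. The arrays of 12 to 21 h gave 9.50, 9.54, 9.85 and 9.72, those of 24 to 33 h 9.30, 10.01, 9.55 and 9.55, and those of 36 to 45 h 10.18, 10.40, 10.09 and 10.33. Of the treated arrays, 13 were above the untreated one, and those of 3 and 6 h were below it. CNFN rose with a linear change of 1.36 (SE 0.21, adjusted p = 0.000171 by limma), and the 45 h value was 2.24-fold the untreated value.

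Between 33 and 36 h the step was 0.87 for TGM1 and 0.63 for CNFN, which are 1.83-fold and 1.54-fold. Steps at least as far up were seen for 0.284% and 0.804% of the tested probes. SPRR1A moved by 0.41 in the same interval, SPRR1B by -0.24 and CSTA by -0.16. The steps of SPRR1B and CSTA were -0.56 and -0.24 without background correction, and -0.72 and -0.29 with normexp. The RMS step over all tested probes was 0.21, the highest of any interval from 15 h on.

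The remaining cornified envelope members gave little signal. IVL encodes involucrin, an early scaffold of the envelope. It was detected on 7 of the 16 arrays, and its values lay between 7.92 and 7.98, at the lower end of the scale. By the line, IVL changed by 0.03 (SE 0.02, adjusted p = 0.141 by limma). Its change was 0.15 (adjusted p = 0.132) without background correction and 0.24 (0.131) with normexp. Without the 45 h array the change was 0.05 (adjusted p = 0.0445). Its sign depended on the scaling. With the median over the tested probes the change was -0.13 (limma adjusted p = 0.0684), and over probes detected on all arrays -0.32 (0.0504). With the median over all probes it was 0.02 (0.361). SPRR3, another small proline-rich precursor, was detected on 0 of 16 arrays, with values from 7.87 to 7.94, and was not tested.

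PI3 encodes elafin, a secreted inhibitor of elastase that transglutaminase can anchor in the envelope. It was at 10.71 untreated and at 10.24, 10.42 and 10.41 from 3 to 9 h. Its values were 10.38, 10.50, 10.80 and 10.64 from 12 to 21 h, 9.93, 9.92, 9.96 and 10.27 from 24 to 33 h, and 9.83, 9.66, 9.13 and 9.95 from 36 to 45 h. The lowest value is that of 42 h, and 14 of the 15 treated arrays were below the untreated one. PI3 fell over the course (-1.02, SE 0.23, adjusted p = 0.00345 by limma), but the step between 21 and 24 h, where the early arrays give way to the late ones, was -0.71. With median scaling over the tested probes the change was -0.72 (adjusted p = 0.0526), and with the median over all probes it was -0.57 (0.209).

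LCN2 encodes lipocalin 2, which withholds iron from bacteria by binding their siderophores. It was at 8.64 untreated and at 8.78, 9.12 and 8.81 from 3 to 9 h. From 12 to 21 h it was at 8.73, 8.80, 8.88 and 8.71, from 24 to 33 h at 8.40, 8.38, 8.38 and 8.44, and from 36 to 45 h at 8.36, 8.37, 8.33 and 8.37. Every early array lay above every late one, and the share of all tested probes with such a separation is not given. LCN2 also fell over the course (-0.62, SE 0.12, adjusted p = 0.00109 by limma), with a step of -0.31 between 21 and 24 h. Without background correction the linear change was -0.83 (SE 0.15, adjusted p = 0.000447) and with normexp from the signals alone it was -0.96 (SE 0.17). With the median over all probes it was -0.38 (adjusted p = 0.0475).

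SLPI encodes the secretory leukocyte protease inhibitor. It was at 12.46 untreated and at 12.56, 12.93 and 12.81 from 3 to 9 h. The arrays of 12 to 21 h gave 12.34, 12.57, 12.75 and 12.62, those of 24 to 33 h 12.40, 11.99, 12.04 and 12.44, and those of 36 to 45 h 12.23, 12.30, 11.93 and 12.66. Of the treated arrays 8 were below the untreated one and 7 above it. Neither the spline fit (adjusted p = 0.0836) nor the linear fit (-0.48, SE 0.20, adjusted p = 0.0846, limma) passed the threshold. Without the 45 h array, its highest value after 21 h, the linear change was -0.68 (adjusted p = 0.0185). The linear fall of SLPI also passed with array weights (-0.62, 0.04), with median scaling over probes detected on all arrays (-0.57, 0.0389) and without both the 0 h and the 45 h arrays (-0.82, 0.0108), and without the 12 h or the 33 h array the spline fit passed (0.0239 and 0.0405). The summed normalized intensity of the 3 secretory members ranged from 4787 to 9721 over the arrays, and that of the cornified envelope members from 2700 to 3962.

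To separate the changes from the step between early and late arrays, slopes were fitted within each period in 1 limma model and expressed as the log2 change over 21 h. From 0 to 21 h CNFN rose (1.01, adjusted p = 0.00814), 1 of 9 tested members beside 14.6% of all tested probes. In the same period SPRR1A (-0.79, adjusted p = 0.018) and CSTA (-1.26, adjusted p = 0.00174) fell, 2 members beside 15.6% of the tested probes. The slope of SPRR1B was -0.66 (adjusted p = 0.0848), with its increase up to 9 h and its drop at 12 h both in this period, and it passed without the 0 h (adjusted p = 0.00323) or the 9 h array (0.048). That of SPRR1A did not pass without the 3 h (0.0526) or the 21 h array (0.0741), with median scaling over the tested probes (-0.45, 0.127) or with the median over all probes (-0.29, 0.482). From 24 to 45 h TGM1 rose (0.97, adjusted p = 0.034), 1 member beside 2.88% of the tested probes. No member fell, with 2.19% of the tested probes falling. By separate fits of each period 3 members had a late slope, and the share of all tested probes in those fits is not given. CNFN had a late slope of 0.90 (adjusted p = 0.052), which passed without the 0, 3, 9 or 27 h array (0.0245 to 0.0486).

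**Figure D2:**
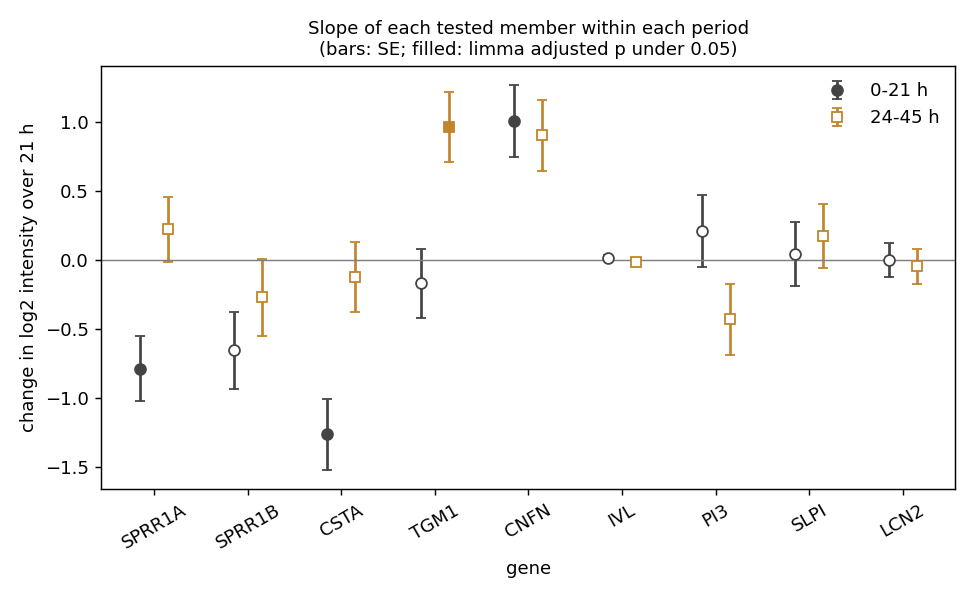
Change in log2 intensity over 21 h (y axis) of each tested gene (x axis) from 0 to 21 h (dark circles) and from 24 to 45 h (orange squares), with bars for the SE of the limma fit. Filled symbols passed an adjusted p under 0.05. CNFN has a positive slope in both periods, passed in the early one, SPRR1A and CSTA have a negative early slope that passed, and PI3, SLPI and LCN2 none that passed.

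The slopes of the secretory members within a period did not pass the threshold. PI3 had slopes of 0.21 and -0.43, SLPI of 0.04 and 0.17, and LCN2 of 0.00 and -0.05. Single arrays moved these values, since the late slope of PI3 was -0.12 without the 42 h array and -0.76 without that of 45 h, its early slope was 0.51 without that of 0 h, and the late slope of SLPI was -0.15 without that of 45 h, none of which passed. With early and late arrays as a block in the fit, the linear change over 45 h was -0.23 for PI3 (limma adjusted p = 0.821) and -0.05 for LCN2 (0.925). It was -1.48 for CSTA (0.0798), -0.99 for SPRR1B (0.189), 0.86 for TGM1 (0.325) and -0.60 for SPRR1A (0.476), so that these 4 changes had a size near or above that without the block but were not called. CNFN was called (2.05, SE 0.40, limma adjusted p = 0.00681), 1 member beside 6.17% of all tested probes. In the spline fit with that block, 3 members were time-dependent, beside 29% of all tested probes, which were TGM1 (adjusted p = 0.0121), CSTA (0.0189) and CNFN (0.0173).

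The difference between the slopes, late minus early, was tested in the same model. It passed for 3 of 9 members, beside 24.8% of all tested probes: SPRR1A (1.01, adjusted p = 0.0339), TGM1 (1.14, adjusted p = 0.0277) and CSTA (1.14, adjusted p = 0.0285). With median scaling over the tested probes the difference of SPRR1A was 0.67 (adjusted p = 0.147), and with the median over all probes none of the 3 passed (0.0717 to 0.411). For TGM1 both the late slope (0.94, adjusted p = 0.0989) and this difference (1.04, adjusted p = 0.0991) missed the threshold without background correction. The count of 3 was 0 without the 24 h array, 0 without the 45 h array, 1 without the 3 h array and 1 without the 42 h array. The difference of SPRR1A also missed the threshold without the array of 15, 21, 27, 30 or 39 h, and that of TGM1 without that of 0 h. The late slope of TGM1 missed it without the array of 24, 27, 30, 39, 42 or 45 h, with adjusted p-values from 0.0631 to 0.119.

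Against the lone untreated array, with a spline of time among the treated arrays, no member passed the threshold in limma, beside 18.9% of all tested probes. At an unadjusted p under 0.05 there were 4, beside 31.5% of all tested probes, which were SPRR1A (treated minus untreated -0.49), CSTA (-0.51), CNFN (0.48) and PI3 (-0.57). CSTA passed the adjusted threshold without the array of 3, 6, 9 or 12 h, with adjusted p-values from 0.0186 to 0.0353. By the study's criterion of 1.7-fold at any time, taken against 0 h and without an error term, 6 members changed, beside 19.5% of the tested probes. These were SPRR1B (higher at 2 time points), CNFN (higher at 5), SPRR1A and TGM1 (lower at 2 each), and CSTA and PI3 (lower at 5 each). At 2-fold the count was 2.

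Co-movement was described by correlations between the 8 members detected on all arrays, within the 8 early and the 8 late arrays. The arrays share culture history and time order, so that any genes with a trend correlate, and no p-value is given. Of 28 pairs, 15 had a positive Pearson's r from 0 to 21 h and 16 from 24 to 45 h, and 17 kept their sign between the periods. The 10 pairs of cornified envelope members were split, with 5 positive early and 4 late. The 3 pairs of secretory members moved the same way in 12 to 14 of the 15 steps between successive arrays, against 5 to 11 for the cornified envelope pairs and 4 to 13 for pairs of 1 gene from each group. The number of such steps in pairs of other tested probes is not given, so these counts cannot be set against shifts shared by whole arrays. The 3 secretory pairs come from only 3 genes, and their r from 0 to 21 h ranged from -0.17 to 0.81.

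SPRR1A, SPRR1B and CSTA moved together on the early arrays, and SPRR1A parted from the other two on the late ones. The r of SPRR1B with CSTA was 0.88 and then 0.86, while that of SPRR1A with CSTA was 0.89 and then -0.65. TGM1 and CNFN, with an r of 0.11 early, had one of 0.86 late, and CNFN opposed CSTA in both (-0.84 and -0.64). Across the groups, SPRR1B and LCN2 had an r of 0.59 and 0.89. Among the secretory members SLPI and LCN2 had 0.81 and 0.49, and PI3 and LCN2 had -0.17 and 0.86.

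**Figure D3:**
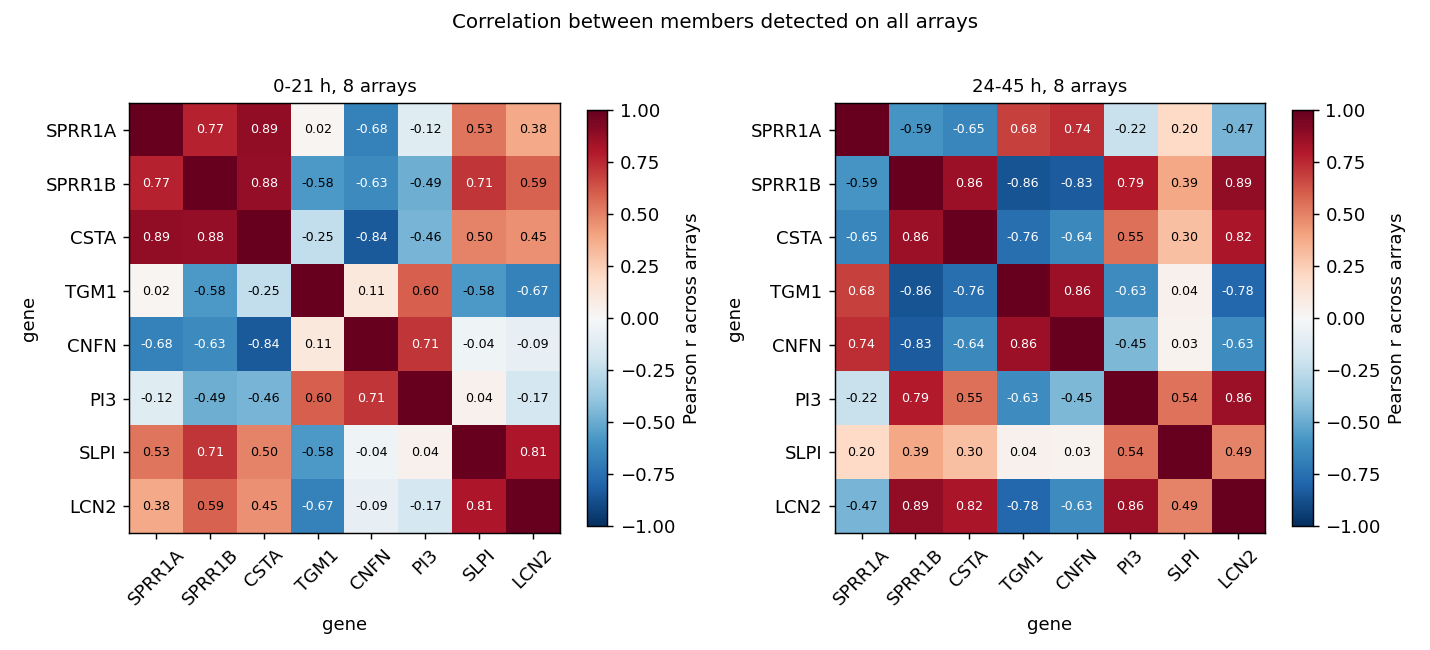
Pearson's r between each pair of the 8 genes detected on all arrays (genes on both axes), over the 8 arrays of 0 to 21 h (left) and the 8 of 24 to 45 h (right), red for positive and blue for negative values as in the color bars. SPRR1A, SPRR1B and CSTA form a positive block on the left; on the right SPRR1A is positive with TGM1 (0.68) and CNFN (0.74) and negative with CSTA.

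Other genes of the program were read from lists. Of 64 other cornified envelope and barrier genes 35 were tested, of which 21 (60%) were time-dependent, beside 42.5% of all 11565 tested genes, and 8 rose and 8 fell in the linear fit (22.9% each), beside 13.4% and 11.4% of all tested genes. The median linear change of the list was 0.01, beside -0.00098 for all tested genes. The largest rises were those of KLK7 (1.57, SE 0.28), PPL (1.47, SE 0.21), KLK10 (1.17, SE 0.23) and KLK5 (0.82, SE 0.23). Within the periods KLK5 fell from 0 to 21 h (-0.67, limma adjusted p = 0.00324) and rose from 24 to 45 h (0.89, 0.00237). KLK5 and KLK7 are kallikrein proteases that cleave the junctions of shedding corneocytes, and PPL encodes periplakin, a plakin of the envelope. KLK7 had values of 13.55 in untreated cells and of 13.76, 14.71 and 15.14 at 33, 36 and 45 h. PPL was at 9.96, 10.13, 11.05 and 11.27 at these times. Both thus had a step between 33 and 36 h, as TGM1 and CNFN did. Both also rose between 21 and 24 h, where the early arrays give way to the late ones. KLK7 went from 13.36 to 13.82 there, and PPL from 9.89 to 10.62. The largest falls were those of DSG3 (-1.40, SE 0.31), LCE3D (-1.15, SE 0.23), DSC2 (-1.005, SE 0.26) and KRT10 (-0.81, SE 0.22).

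DSG3 and DSC2 are desmosomal cadherins, LCE3D is a late envelope protein and KRT10 is a keratin of the suprabasal layers. DSG3 was highest at 3 h (11.05), and DSC2, LCE3D and KRT10 were highest at 6 h. Within 0 to 21 h all 4 fell, with slopes of -1.79 (adjusted p = 0.000324) for DSG3, -1.15 (0.00406) for LCE3D, -1.03 (0.0251) for DSC2 and -1.23 (0.000267) for KRT10 by limma. From 24 to 45 h their slopes lay between -0.27 and 0.04, with adjusted p-values from 0.714 to 0.936. LCE3D was detected on 10 of the 16 arrays and was at 8.06 at 24 h and 7.90 at 45 h. These values are close to those of the undetected SPRR3 (7.87 to 7.94), so its late slope cannot tell whether it kept falling.

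Of 44 other secretory and epithelial defence genes 24 were tested, 12 (50%) were time-dependent, and 4 rose and 4 fell (16.7% each), with a median linear change of -0.01. Over all tested genes 42.5% were time-dependent, 13.4% rose and 11.4% fell. DEFB1, a beta-defensin, rose (1.69, SE 0.19), as did MUC1 (0.46), a membrane mucin, SAA1 (0.32), an acute-phase protein, and CFB (0.14), complement factor B. CFB was detected on only 9 of the 16 arrays, with values from 7.92 to 8.12, at the lower end of the scale. SERPINA3, a protease inhibitor of the acute phase, fell the most (-2.50, SE 0.16, limma adjusted p = 1.47e-08), from 12.95 untreated to 10.56 at 45 h. TCN1 (-1.63), which binds vitamin B12, TNFAIP3 (-0.92), an inhibitor of NF-kB signaling, and CHI3L2 (-0.13) also fell. SERPINA3 fell within both periods (-0.77, adjusted p = 0.00439, and -0.95, adjusted p = 0.00577), unlike PI3 and LCN2, whose slopes within a period did not pass. The difference between SERPINA3 and those genes was not tested.

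Of 30 regulators of squamous differentiation 23 were tested. Of these 15 (65.2%) were time-dependent, 2 rose (8.7%) and 4 fell (17.4%), with a median linear change of -0.02. The shares of all tested genes were 42.5%, 13.4% and 11.4%, in that order. ELF3, an epithelial ETS factor, rose (1.62, SE 0.43, limma adjusted p = 0.0103), as did CEBPD (0.71, SE 0.23). ELF3 was at 11.02 untreated and 9.59 at 12 h, then at 10.48, 11.56 and 11.86 at 33, 36 and 45 h, and its slope from 24 to 45 h was 2.25 (adjusted p = 0.00222). FOSL1, a subunit of AP-1 (-1.16, SE 0.24), JAG1, a Notch ligand (-1.13, SE 0.22), PRDM1 (-0.90, SE 0.23) and MAF (-0.22, SE 0.06) fell. MAF was detected on only 4 of the 16 arrays, with values from 7.88 to 8.26, at the lower end of the scale. FOSL1 was at 10.19 untreated, at 9.24 and 9.97 at 9 and 12 h, and at 8.60 by 45 h, where the 9 h array was a dim one. A link between FOSL1 and the step of SPRR1A, SPRR1B and CSTA between 9 and 12 h was not tested.

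**Figure D4:**
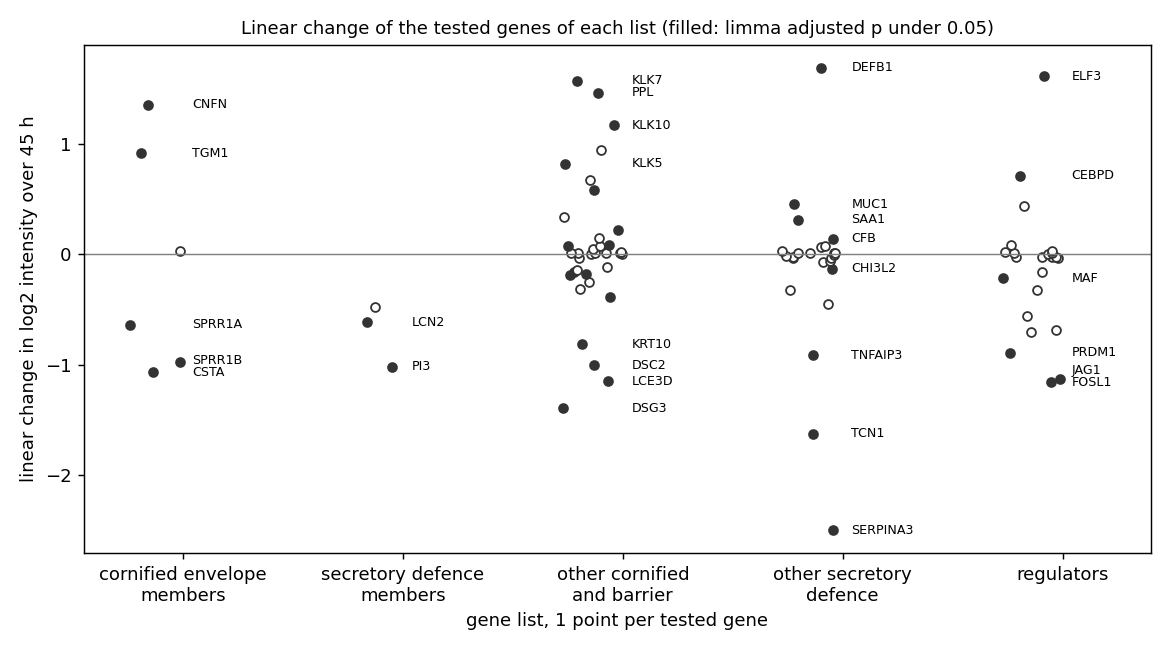
Linear change in log2 intensity over 45 h (y axis) of the tested genes of each list (x axis), 1 point per gene, with filled points for a limma adjusted p under 0.05 and the genes described in the text labelled. Each of the 5 lists plotted holds genes that rose and genes that fell except the secretory defence members, of which PI3 and LCN2 fell and SLPI did not pass; most open points lie near 0.

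Genes with a course most like that of a member were sought among the 8672 probes detected on all 16 arrays, for the member of each group with the widest fitted course. CNFN was most like RGS10 (r = 0.97 over 16 arrays), CLIC3 (0.97), PCBD1 (0.97), DEFB1 (0.94) and METTL7A (0.94), all of which rose in the linear fit, by 1.02 to 1.93. PI3 was most like APRT (0.90), TXNL5 (0.88), AKR1A1 (0.87), ARL4 (0.87) and PRKCDBP (0.86). All 5 of the latter had negative linear changes, from -0.87 to -0.23, of which that of ARL4 did not pass (adjusted p = 0.0577). These genes were picked for their correlation over the same arrays, with a trend in common, and no test is given.

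The direction of the 7 members with a linear trend did not depend on the scaling, but the balance over all probes did. Of the 3004 probes with a linear trend 52.7% rose after quantile normalization. This share was 35.6% with median scaling over the tested probes, which moved the median linear change of all tested probes to -0.10, 80.5% with the median over all probes and 18.9% with that over probes detected on all arrays, where the median change was -0.28. Relative to the last shift the changes of CNFN (1.33) and TGM1 (0.80) remain rises, and those of SPRR1B (-1.05), CSTA (-1.04), PI3 (-0.90), LCN2 (-0.72) and SPRR1A (-0.52) lie below it. With the median over all probes the falls of SPRR1B (-0.71), CSTA (-0.70, limma adjusted p = 0.00795) and LCN2 (-0.38, 0.0475) were called, while PI3 and SPRR1A were not.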

How the data were processed

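RNA of 16 cultures was hybridized by the authors to Illumina human Ref-8 v2 arrays. The authors deposited, for 20589 probes, an intensity that was not yet normalized between arrays, with a detection p-value also deposited by the authors; their published comparisons used quantile normalization. The genome build behind the probes is not given in the sources used here. Symbols are those of the table, and 10 genes of the lists were matched through a RefSeq synonym.

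The neqc function of limma 3.58.1 (R 4.3.3) corrected the background with an offset of 16 and background moments inferred from the detection p-values, followed by quantile normalization and log2. Tests covered the 12321 probes that at least 3 arrays detected (detection p under 0.05). Time was fitted as a natural cubic spline with 4 degrees of freedom, as a line, and as a line within 0 to 21 h and within 24 to 45 h, with lmFit and eBayes with a trend. The treated arrays were set against 0 h with a spline with 3 degrees of freedom, which assumes that the 0 h array varies like the others. P-values were adjusted by Benjamini-Hochberg over all tested probes, at 0.05. With successive arrays in place of replicates, p-values measure the scatter about the curve. In data simulated for the linear and spline fits on 12321 probes, the linear fit called 74% of changes of 0.5 and 98% of changes of 1 in log2. The spline fit called 62% and 92%. Those data held straight-line changes on randomly drawn probes with independent scatter, without steps or shifts between arrays. They do not tell how often a stepwise course like those of the members would be called.

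Background intensity was the median over 3343 probes whose mean detection p was above 0.5. From each list of other genes the 4 largest rises and falls among genes past both fits are named, and likeness was ranked for the called member of each group with the widest fitted course. The members and lists were chosen with earlier results of these data known. Background correction, scaling, detection filter, array weights, spline, single arrays and array blocks were varied. Columns of intensity and detection p-values of all 16 arrays were used.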

Additional observations from a re-analysis of the deposited data

Results flagged for a closer look

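For 3 members the slope of 24 to 45 h differed from that of 0 to 21 h by a limma test of the difference. These were 3 of 9 tested members, beside 24.8% of all tested probes. The count was 0 without the 24 h or the 45 h array and 0 with the median over all probes. The later slope minus the earlier one, in log2 over 21 h, was 1.01 for SPRR1A, 1.14 for TGM1 and 1.14 for CSTA. SPRR1A and CSTA had a negative slope in the earlier period and none that passed in the later one, and TGM1 had the reverse order, with a positive slope in the later period. The periods coincide with the division of the arrays by background intensity.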

How the results depend on the processing

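No paired analysis was possible because there were no replicate numbers to pair. Averaging the probes of a gene changed nothing, since each member has 1 probe. Alternatives for the slope difference, leave-one-out fits of the slopes, treated arrays and fold counts, background settings for these, blocks of 4 arrays, other probes for the median and the fit without 0 h and 45 h were chosen after seeing the data.

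With early and late arrays as a block, 3 members were called in the spline fit, beside 29% of all tested probes, and 1 in the linear fit, beside 6.17%. The linear changes of CSTA (-1.48), SPRR1B (-0.99), TGM1 (0.86) and SPRR1A (-0.60) lost their call at a size near or above that without the block. With the sets of 4 successive arrays as a block the counts were 2 and 0. In the latter fit, in which only the trend inside each set counts, the linear change was reversed for CSTA (0.34), LCN2 (0.37), PI3 (0.46), SPRR1B (1.15) and TGM1 (-0.90), none of them past the threshold. At 2-fold 2 members changed. No share of all tested probes is given for the counts at 2-fold, in separate fits, without single arrays or with sets of 4 arrays. The same holds for the counts against the untreated array that follow. Against the untreated array 1 member passed with median scaling over the tested probes, with normexp and without background correction, and 2 with the median over probes detected on all arrays. With the median over all probes no slope difference passed (0). For the late slope 2 members passed with the median over probes detected on all arrays, beside 2.08% of all tested probes rising and 1.86% falling. The count was 3 in separate fits, and 0 with normexp or without background correction.

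Leaving out 1 array at a time gave 6 to 8 time-dependent members, 6 to 9 with a linear trend, 2 to 4 with an early slope, 0 to 2 with a late slope, 0 to 3 slope differences, 0 to 1 against the untreated array and 6 at 1.7-fold. The linear rise of CNFN was called in each of 8 other settings and of 16 leave-one-out fits (1.18 to 1.46), but not with the sets of 4 arrays as a block. The call of SPRR1A was lost under 5 of these 8 settings and in 7 leave-one-out fits. Dim signal limits IVL and SPRR3, which lie near background, and among the named genes of the lists LCE3D, CFB and MAF.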
